A study of Mus musculus with 2 samples.

Results

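The genes described here are 10 members of the cytosolic heat shock and small chaperone system: Hspa1a, Hspa1b, Hspa8, Hsp90aa1, Hsp90ab1, Hsph1, Dnajb1, Hspb1, Cryab and Chordc1. They were taken by symbol from the deposited table, in which all 10 were found, with 13 transcript rows among 14189 rows and 10778 symbols. Cryab had 4 rows and each of the other 9 genes had 1 row.

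Brown adipose tissue, a fat depot that burns lipid to make heat, was sequenced as poly(A) RNA from male C57BL6/J mice of 8 to 12 weeks. The SML group received SML intraperitoneally (5 mg per kg of body weight) during 10 days on high fat chow that supplied 60% of calories as fat. The HFD control group had the same chow without SML. Sesaminol is named in the series title, and the labels write SML, which is kept here. Each group was 1 library, and the sources used here do not give how many animals went into it.

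Each difference therefore compares 2 libraries and not 2 conditions, and no test between groups was possible. The table held 8503334 fragments for SML and 11999677 for HFD control. Levels are in FPKM, fragments per kilobase of transcript scaled by the authors for library size. Ratios are SML over HFD control in the scaled count columns, and the range in parentheses is a 95% exact conditional binomial interval. Such intervals cover counting error alone, since animals vary and PCR copies are not independent molecules. The size rule calls a gene higher or lower when its log2(FPKM + 1) in SML minus that in HFD control reaches 1.5-fold, which makes differences of genes near 0 FPKM look smaller than they are. Brown adipocyte markers were present in both libraries, with 11 of 11 listed, none at 0, and a summed level of 66274 FPKM in SML and 76685 FPKM in HFD control. Fabp4 and Cox8b were the most abundant of them. Of the 11, 1 was higher, Dio2, and 0 were lower. Cox8b stood at 14824 FPKM in SML and 22044 FPKM in HFD control, a ratio of 0.659 (0.649 to 0.669), and narrowly missed the rule.

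Heat shock proteins keep other proteins folded. HSP70 and HSP90 are ATP-driven chaperones that work with co-chaperones, which deliver substrates or set the speed of the ATP cycle. Small heat shock proteins need no ATP and hold unfolding proteins until HSP70 can act on them. When unfolded proteins build up, the transcription factor HSF1 binds repeats of the pentamer nGAAn, placed head to head or tail to tail, in the promoters of the inducible members.

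Promoter sequences of 6 of the 10 genes were held in the RefSeq table for build GRCm38.p6. The 250 bases before the start site are shown 5′ to 3′ for the inducible HSP70 pair, for the small chaperone Hspb1 and for Hsph1, the genes in which a pair of facing heat shock units was found. Chordc1, the 1 gene that was higher in SML by the size rule used below, is shown as a window without a match. Capitals mark matches to GAANNTTC or TTCNNGAA, each of which reads the same on both strands, so that a match holds on either strand.
Hspa1a (chr17:34972157-34972406, minus strand): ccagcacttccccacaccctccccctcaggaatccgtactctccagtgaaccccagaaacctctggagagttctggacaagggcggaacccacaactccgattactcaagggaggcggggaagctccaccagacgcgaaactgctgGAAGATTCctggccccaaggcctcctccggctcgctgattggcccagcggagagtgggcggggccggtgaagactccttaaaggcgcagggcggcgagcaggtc
Hspa1b (chr17:34959239-34959488, minus strand): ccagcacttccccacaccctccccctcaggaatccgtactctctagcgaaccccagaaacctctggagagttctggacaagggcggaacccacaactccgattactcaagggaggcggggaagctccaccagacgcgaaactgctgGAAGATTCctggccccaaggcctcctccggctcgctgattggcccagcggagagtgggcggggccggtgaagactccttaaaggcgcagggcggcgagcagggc
Hspb1 (chr5:135887669-135887918, plus strand): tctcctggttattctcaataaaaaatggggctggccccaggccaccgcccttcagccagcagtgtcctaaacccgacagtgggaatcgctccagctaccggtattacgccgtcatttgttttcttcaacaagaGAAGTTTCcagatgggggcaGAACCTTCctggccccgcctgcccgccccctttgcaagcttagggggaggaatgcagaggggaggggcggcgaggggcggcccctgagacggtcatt
Hsph1 (chr5:149636316-149636565, minus strand): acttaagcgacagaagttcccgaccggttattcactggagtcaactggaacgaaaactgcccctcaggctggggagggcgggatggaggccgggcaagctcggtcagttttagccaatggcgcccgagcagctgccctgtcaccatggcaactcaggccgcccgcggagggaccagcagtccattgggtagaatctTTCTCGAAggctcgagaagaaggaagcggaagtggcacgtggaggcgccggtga
Chordc1 (chr9:18292017-18292266, plus strand): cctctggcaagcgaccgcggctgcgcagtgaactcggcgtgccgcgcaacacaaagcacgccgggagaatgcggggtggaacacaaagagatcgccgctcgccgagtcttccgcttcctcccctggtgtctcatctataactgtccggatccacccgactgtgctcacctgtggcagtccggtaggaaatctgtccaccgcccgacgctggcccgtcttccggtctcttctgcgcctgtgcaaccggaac

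The match in Hspa1a and in Hspa1b lay at bases -104 to -97 before the start site, and 247 of the 250 bases were identical between these promoters. Hspb1 had 2 matches, at -117 to -110 and at -97 to -90. In Hsph1 the match lay at -54 to -47 before the start site shown. Of 2 start sites in the table, that one meets the end of the deposited Hsph1 row. GENCODE starts Hsph1 further upstream, at chr5:149636376, so this match lies inside the GENCODE gene. GENCODE also starts Chordc1 inside the window shown, at chr9:18292125. Matches were found in 4 of the 6 genes, and the windows of Dnajb1 and Chordc1 held none. Dnajb1, which is not shown, was lower in SML by the size rule. Whether a match goes with the direction of a gene was not tested. For comparison, 12.9% of 32536 promoter windows in the same table held at least 1 match. A match is a description of the letters and not a measured binding site.

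In the SML library 6 of the 10 genes were lower by the 1.5-fold rule, 1 was higher and 3 were neither. Among all 9887 symbols with a mean of at least 1 FPKM, 5.76% were lower and 5.44% higher, so 48.6% of all calls were higher. That share was 62.6% when the listed muscle fibre markers were left out and totals set equal. Of the 10 genes 4 were then lower and 1 higher, beside 4.45% and 7.45% of symbols. That step rescaled every SML value by the same factor and took no muscle RNA out of the values of the 10 genes. Without it, the 6 lower genes were both inducible HSP70 genes, both HSP70 co-chaperones and both small heat shock proteins. Chordc1 was the higher one, and the constitutive HSP70 gene and the HSP90 pair were neither. At a 2-fold rule 4 of the 10 were lower (Hspa1a, Hspa1b, Hspb1 and Cryab) and 0 were higher, beside 1.96% and 0.668% of all symbols. The median difference over the 10 genes was -0.61 on the log2(FPKM + 1) scale, beside a median of 0 and quartiles of -0.21 and 0.22 over all 9887 symbols. All 10 genes passed the filter on low values, but Hspa1a and Hspa1b did so only through the HFD control library. With a mean of at least 5 FPKM 8 of the 10 were kept. Of these 4 were lower and 1 higher by the 1.5-fold rule, beside 4.97% and 5.18% of symbols.

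**Figure D1:**
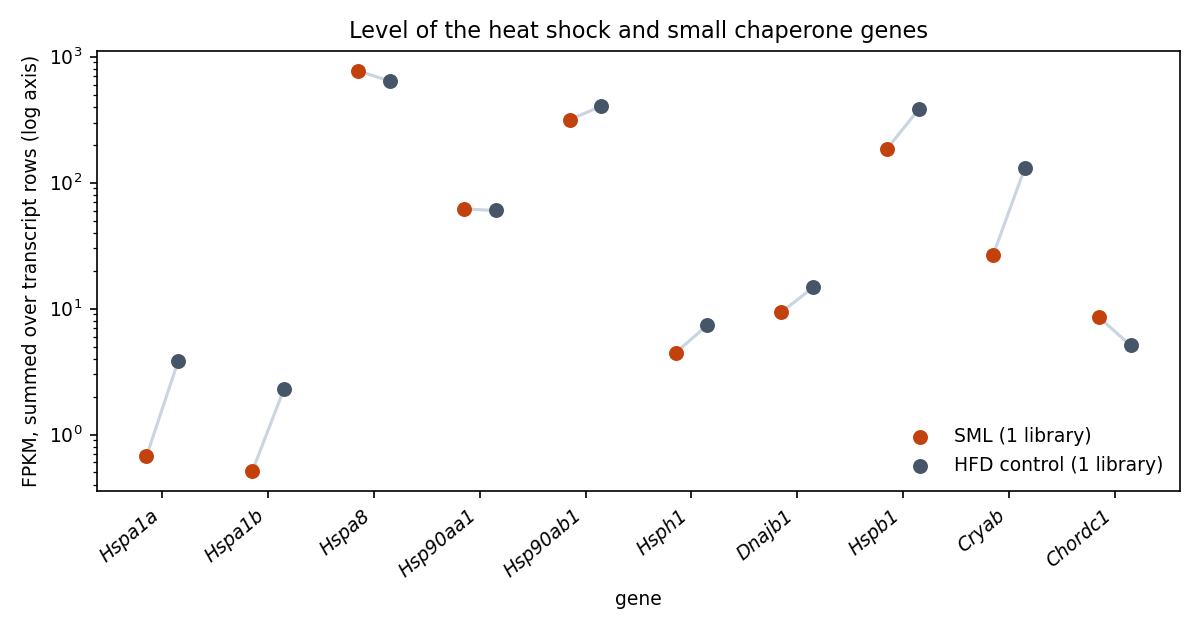
Level of each gene in FPKM, summed over its transcript rows, on a log axis, with 1 point for the SML library left of 1 point for the HFD control library. Hspa8 stood highest in both libraries (773 and 639 FPKM), the inducible pair Hspa1a and Hspa1b lowest, and the widest gaps were those of Hspa1a, Hspa1b and Cryab.

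Hspa1a and Hspa1b encode the stress-inducible cytosolic HSP70 and lie next to each other as single-exon genes on chromosome 17 (Hspa1a at chr17:34969359-34972156 and Hspa1b at chr17:34956429-34959238, mm10). Hspa1a stood at 0.67 FPKM in SML and 3.83 FPKM in HFD control, on 17 and 133 fragments, and was 5.76-fold lower (3.46 to 10.2). Hspa1b stood at 0.51 FPKM in SML and 2.30 FPKM in HFD control, on 13 and 80 fragments, and was 4.53-fold lower (2.50 to 8.87). Both stood below 1 FPKM in SML and passed the filter on low values through the HFD control library. Their transcripts share much of their sequence: 58.8% of the 50-base windows of Hspa1a also occur in Hspa1b transcripts. The division of fragments from shared stretches between them is therefore uncertain. Summed over the pair, 30 fragments in SML and 213 in HFD control gave a 5.23-fold lower level (3.55 to 7.94).

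Hspa8 (chr9:40801273-40805199) encodes HSC70, the HSP70 that cells make without stress. It was the most abundant of the 10 genes, at 773 FPKM in SML and 639 FPKM in HFD control, and its ratio of 1.21 (1.18 to 1.23) did not reach 1.5-fold. It ranked 202nd of 9887 symbols in SML and 245th in HFD control. The constitutive gene outweighed the inducible pair 655 to 1 in SML and 104 to 1 in HFD control. The pair summed to 1.18 FPKM in SML, on 30 fragments, so the SML figure is imprecise. Within the HSP70 group the inducible genes were lower and the constitutive gene was neither. Of the Hspa8 windows, 39.4% also occur in transcripts of 16 other genes.

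Neither HSP90 gene passed the size rule. Hsp90ab1 (chr17:45567778-45573261), the constitutive beta form, stood at 317 FPKM in SML and 404 FPKM in HFD control, a ratio of 0.782 (0.760 to 0.805). Hsp90aa1 (chr12:110691036-110696395), the alpha form that heat induces, stood at 61.7 FPKM in SML and 60.2 FPKM in HFD control, with a ratio of 1.02 (0.959 to 1.09) whose interval held 1. The alpha form made up 16.3% of the pair's summed FPKM in SML and 13.0% in HFD control. For Hsp90aa1, 47.5% of windows occur in transcripts of 4 other genes, against 3.44% for Hsp90ab1.

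The HSP70 co-chaperones were lower by margins close to the size rule. Dnajb1 (chr8:83608175-83612653), a J-domain protein that starts the ATP cycle of HSP70, stood at 9.37 FPKM in SML and 14.7 FPKM in HFD control and was 1.57-fold lower (1.35 to 1.83). Hsph1 (chr5:149616845-149636315), an HSP110 protein that releases ADP from HSP70, stood at 4.45 FPKM in SML and 7.37 FPKM in HFD control and was 1.66-fold lower (1.36 to 2.03). Both intervals spanned 1.5-fold. With totals set equal outside the 50 highest symbols the differences were -0.55 for Dnajb1 and -0.58 for Hsph1, and neither was then lower by the rule. Hsph1 shared no 50-base window with another gene, and Dnajb1 shared 0.412% of its windows.

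Chordc1 (chr9:18292267-18314000) encodes a zinc-binding co-chaperone of HSP90. It stood at 8.57 FPKM in SML and 5.10 FPKM in HFD control, on 169 and 137 fragments, and was 1.68-fold higher (1.33 to 2.12). It had the lowest GC content of the 10, 35.7% in its longest GENCODE transcript. With the trend on GC content and length removed its difference was 0.34, under the rule, against 0.65 without that step.

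Both small heat shock genes were lower, Cryab by the largest difference of the 10 on the log2(FPKM + 1) scale. Hspb1 (chr5:135887919-135889563), called HSP25 in the mouse, was the more abundant, at 186 FPKM in SML and 383 FPKM in HFD control, and was 2.07-fold lower (1.94 to 2.20). Cryab (chr9:50751072-50756635), the alpha-B crystallin of lens and striated muscle, stood at 26.5 FPKM in SML and 129.9 FPKM in HFD control, on 188 and 1248 fragments, and was 4.89-fold lower (4.19 to 5.73). Cryab ranked 2478th of 9887 symbols in SML against 812th in HFD control, while Hspb1 was 592nd and 361st. Of the windows of Hspb1, 50.1% occur in transcripts of 2 other genes, chiefly the pseudogene Hsp25-ps1.

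The Cryab rows did not share 1 ratio. Row 2 stood at 18.3 FPKM in SML and 55.7 FPKM in HFD control, and row 4 at 8.18 FPKM in SML and 30.2 FPKM in HFD control. Row 3 held 0.01 FPKM in SML against 41.0 FPKM in HFD control, and row 1 held 0 against 3.07 FPKM. The share of the gene's scaled counts in row 2 was thus 66.4% in SML and 41.6% in HFD control, and that in row 3 was 0.0246% and 30.2%. All 4 rows carry the same coordinates, so the table does not say which exons set them apart. The authors' software divided fragments of 1 gene among these rows, and a value near 0 is an estimate from that division. The sum over the rows is the value used above. With the most abundant row alone, Cryab was still lower, at -1.56 against -2.25 for the sum on the log2(FPKM + 1) scale.

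**Figure D2:**
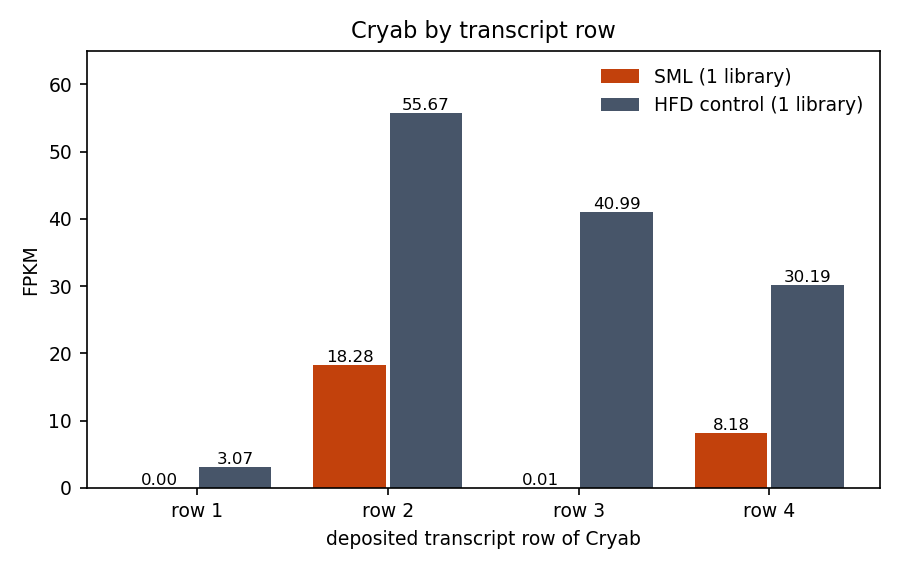
Deposited FPKM of the 4 Cryab transcript rows, with the SML bar left of the HFD control bar in each pair and 1 library per bar. Rows 2 and 4 held 18.28 and 8.18 FPKM in SML, while rows 1 and 3 were at or near 0 there and at 3.07 and 40.99 FPKM in HFD control.

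The GENCODE gene span of Cryab, introns included, overlaps that of Hspb2 over 1030 bases (chr9:50751325-50752354). Hspb2 is another small heat shock gene, on the opposite strand. Of the 50-base windows of Cryab transcripts, 13.3% also occur in Hspb2 transcripts, read on either strand. The table gives the 2 Hspb2 rows the same interval as Cryab, and the sources used here do not say whether strand was used in counting, so fragments from the overlap could have gone to either gene. Hspb2 stood at 2.29 FPKM in SML and 8.21 FPKM in HFD control, on 11 and 52 fragments.

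Other genes of the small heat shock list were lower as well. Of 6 kept genes 5 were lower and 0 higher, beside 5.76% and 5.44% of all symbols. The median of the 6 was -1.22, beside 0 for all symbols. Hspb6, a small chaperone abundant in muscle, stood at 30.5 FPKM in SML and 90.9 FPKM in HFD control and was 2.99-fold lower (2.65 to 3.37). Hspb8, a partner of the co-chaperone Bag3, stood at 56.0 FPKM in SML and 94.0 FPKM in HFD control and was 1.68-fold lower (1.56 to 1.82). Hspb7 (1.39 FPKM in SML and 3.64 FPKM in HFD control) and Hspb2 were 2.63-fold and 3.48-fold lower. Hspb3 was seen on 1 fragment in SML and 18 in HFD control, a ratio of 0.0755 (0.00181 to 0.478). At 0.17 FPKM in SML and 2.26 FPKM in HFD control, Hspb3 passed the filter on low values only through the HFD control library. Hspb11, a part of the transport machinery of cilia despite its name, was the exception at a ratio of 1.22 (0.863 to 1.71). Hspb9 was below the filter, with 0 fragments in SML and 1 in HFD control.

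**Figure D3:**
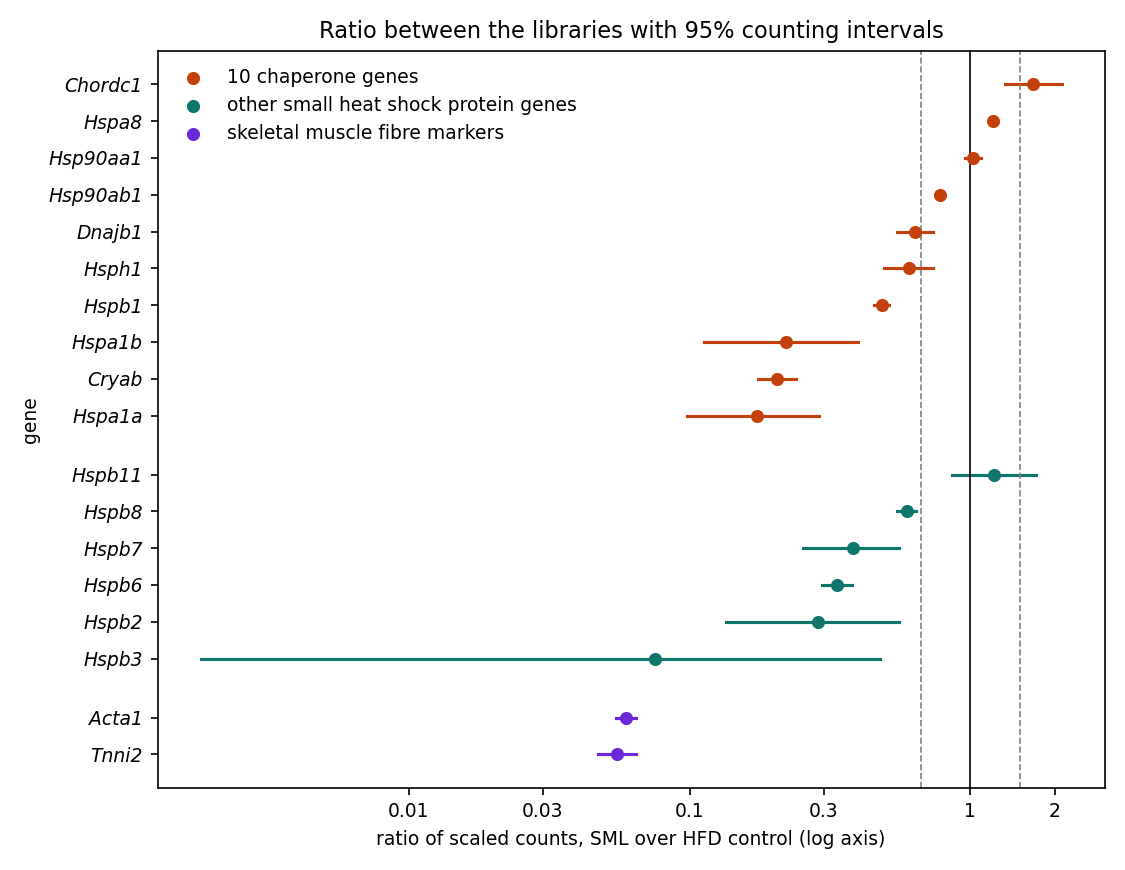
Ratio of scaled counts, SML over HFD control, on a log axis, with 95% counting intervals as lines and dashed lines at 1.5-fold either way. Of the 10 chaperone genes Chordc1 lies highest (1.68) and Hspa1a lowest (0.174), and the muscle fibre markers Acta1 and Tnni2 lie lower (0.0594 and 0.0552) than these 10 genes.

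Markers of skeletal muscle fibres were lower beside the small heat shock genes. Of 21 listed markers 19 were in the table, 18 passed the filter, and 18 were lower, beside 5.76% of all symbols. Their summed level was 445 FPKM in SML and 4772 FPKM in HFD control, and none was at 0 in either library. Some of the kept markers stood below 1 FPKM in SML and passed the filter only through the HFD control library. Acta1, the actin of muscle fibres, stood at 52.5 FPKM in SML and 881 FPKM in HFD control and was 16.8-fold lower (15.6 to 18.2). Tnni2, a troponin of fast fibres, was 18.1-fold lower (15.5 to 21.2). Cryab stood at 0.504 of the Acta1 level in SML and 0.148 in HFD control, so it differed less than that marker did. Hspb1 stood at 3.55 times the Acta1 level in SML and 0.435 times in HFD control. In a bulk tissue, fewer cells of a type and less RNA per cell cannot be told apart. The part of muscle transcripts in the values of Cryab and Hspb1 was not tested.

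Of the chaperone genes known for their place in muscle, 6 of 7 were lower and 0 higher, beside 5.76% and 5.44% of all symbols. However, 4 of the 6 (Hspb2, Hspb3, Hspb6 and Hspb7) are also in the small heat shock list above. The lowest was Itgb1bp2, a muscle relative of Chordc1 with the same zinc-binding domains, at 0.37 FPKM in SML and 7.05 FPKM in HFD control. Smyd1, a methyltransferase that binds myosin and HSP90, stood at 0.72 FPKM in SML and 2.37 FPKM in HFD control. Itgb1bp2, Smyd1 and Hspb3 stood below 1 FPKM in SML and passed the filter on low values through the HFD control library. For such genes the filter favoured a lower call. Unc45b, the myosin chaperone, went with neither direction at 5.81 FPKM in SML and 5.12 FPKM in HFD control, a ratio of 1.13 (0.930 to 1.38). 

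Markers of other cell types had smaller median differences than those of muscle fibres, with 0 higher and none at 0 in these lists. Over all symbols 5.76% were lower and 5.44% higher by the rule. Of 8 macrophage markers 5 were lower, with sums of 272 FPKM in SML and 439 FPKM in HFD control. The most abundant of the 8 were Lyz2, which was neither, and C1qb, which was lower. All 4 erythroid markers in the table were lower, with sums of 1012 FPKM in SML and 1974 FPKM in HFD control, and Hba-a1 and Hba-a2 were the most abundant. Of 6 endothelial markers 2 were lower, Cldn5 and Cdh5, with sums of 139 FPKM in SML and 216 FPKM in HFD control, and Egfl7, the most abundant, was neither. Of 6 smooth muscle markers 1 was lower, Des, at 55.4 FPKM in SML and 86.2 FPKM in HFD control. The 6 summed to 125 FPKM in SML and 167 FPKM in HFD control, and Tagln, the next in abundance, was neither. Their part in the chaperone values was not tested.

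Of 19 further genes that heat induces, outside the 10, 2 were lower, 1 was higher and 16 were neither, with a median of -0.11. Hspb8, described above, was among the lower ones. Mrpl18, which encodes a ribosomal protein of mitochondria, was 1.55-fold higher (1.42 to 1.69). Hspd1, the mitochondrial HSP60, had a ratio of 1.26 (1.21 to 1.30). Hsf1, which encodes the heat shock factor itself, stood at 10.6 FPKM in SML and 11.1 FPKM in HFD control, with a ratio of 0.956 (0.790 to 1.16). Hsf2, Hsf4 and the HSF1-binding protein gene Hsbp1 had ratios of 0.913, 0.774 and 0.925, and none of the 4 genes passed the rule.

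Among the rest of the HSP70 family 1 of 10 kept genes was higher and 0 were lower. That gene was Hspa5, the HSP70 of the endoplasmic reticulum, at 119 FPKM in SML and 72.2 FPKM in HFD control (1.65-fold, 1.56 to 1.74). Hspa13 had a ratio of 1.63 (1.22 to 2.19) at low FPKM and missed the rule, and Hspa12b and Hspa12a lay at the other end with ratios of 0.727 and 0.708. Hspa1l, an HSP70 gene beside Hspa1a, was listed at 0 FPKM in SML although its scaled count there was 11.3, so that 0 was not an absence of fragments. In HFD control it stood at 1.18 FPKM with a scaled count of 22.3.

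None of 20 HSP90 family and HSP90 co-chaperone genes passed the rule (0 higher, 0 lower), with a median of -0.05. By difference on the log2(FPKM + 1) scale the ends were Stip1, which hands substrates from HSP70 to HSP90 (ratio 0.688, 0.620 to 0.763), and Ahsa1, which speeds the HSP90 ATPase (0.775), against Ppid (1.40) and Hsp90b1 (1.23). In the J-domain families Dnaja4, at 4.25 FPKM in SML and 6.94 FPKM in HFD control, was the 1 lower gene of 12 in the A and B classes, followed by Dnaja1 at a ratio of 0.734. Dnajb9 and Dnajb11, both of the endoplasmic reticulum, had the highest differences there, 0.53 and 0.30 on the log2(FPKM + 1) scale. In the C class 4 of 23 were higher and 0 lower, beside 5.44% and 5.76% of all symbols. Dnajc2, which binds ribosomes, was the highest, at 9.96 FPKM in SML and 4.02 FPKM in HFD control (2.47-fold, 1.92 to 3.19), and Dnajc25 was 1.89-fold higher (1.55 to 2.32). Dnajc3 and Dnajc21 were 1.71-fold and 1.66-fold higher. Dnajc16 and Dnajc5 had the lowest differences of that class on the log2(FPKM + 1) scale, with ratios of 0.628 and 0.754.

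Of 10 nucleotide exchange factors of HSP70, Bag1 was the 1 higher gene and 0 were lower. Bag1 stood at 338 FPKM in SML and 208 FPKM in HFD control (1.62-fold, 1.54 to 1.70), and Grpel2 had a ratio of 1.23. Bag3, known for its tie to small heat shock proteins, had a ratio of 0.749 (0.669 to 0.839) and Bag2 one of 0.912. None of the 8 subunits of the cytosolic chaperonin in the table passed the rule, with Cct3 (-0.33) and Cct8 (-0.19) lowest and Cct5 (0.16) and Tcp1 (-0.04) highest on the log2(FPKM + 1) scale. Prefoldin, which feeds that chaperonin, had 0 of 6 past the rule, at -0.33 for Pfdn2, -0.18 for Pfdn5, 0.09 for Pfdn6, 0.22 for Pfdn1, 0.35 for Pfdn4 and 0.58 for Vbp1. Mitochondrial chaperones and proteases also had 0 of 10 past the rule, between -0.14 for Clpb and 0.33 for Hspd1. Clpp (-0.09) and Lonp1 (0.15) were next to those ends.

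Over all 114 kept genes of the chaperone lists other than the 10, 7 were higher (6.14%) and 9 were lower (7.89%), near the shares of all symbols. Of the 9 lower genes 7 were in the small heat shock or muscle lists, and Dnaja4 was among the other 2. Without those lists 2 of 105 genes were lower (1.90%) and 7 were higher (6.67%), with a median of -0.04.

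**Figure D4:**
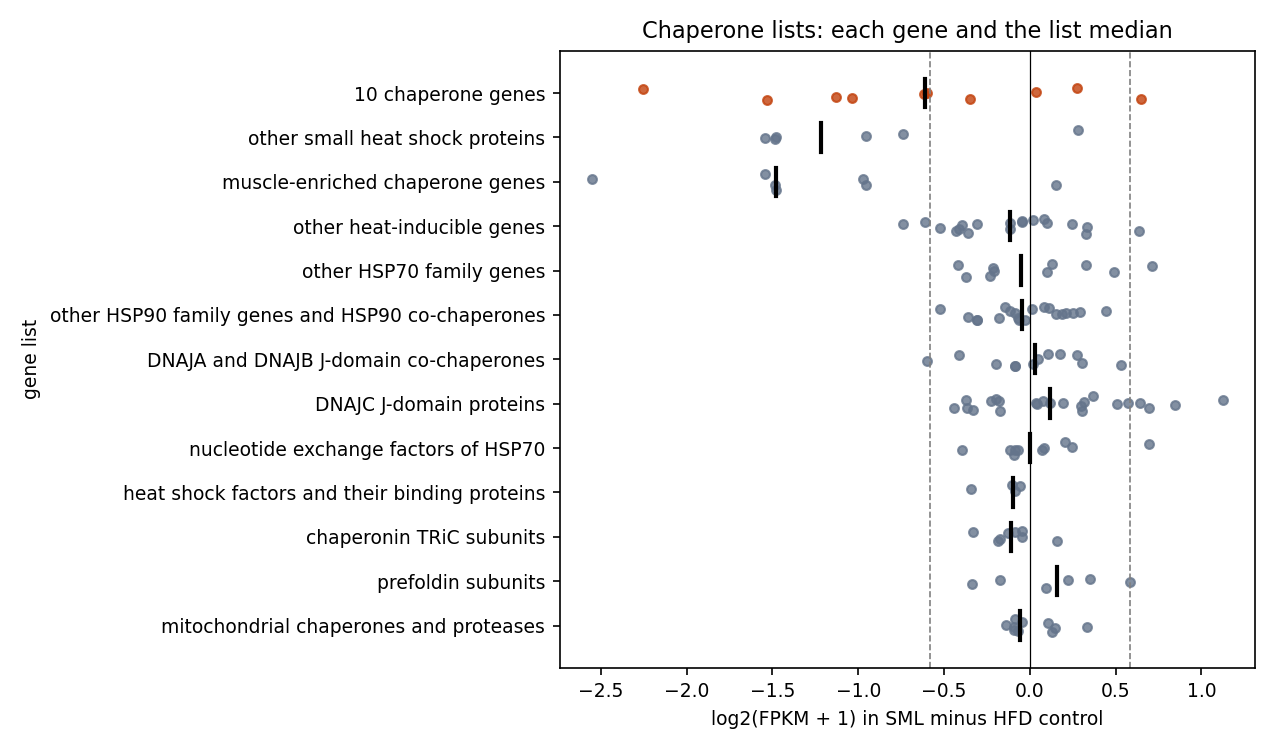
Difference of each kept gene, log2(FPKM + 1) in SML minus HFD control, for the 10 chaperone genes and 12 further lists, with black bars at list medians and dashed lines at 1.5-fold. The small heat shock and muscle-enriched lists have medians of -1.22 and -1.48, while the medians of the other 10 further lists lie between -0.11 and 0.16.

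Base composition went along with the direction among the 10 genes. The 3 with a difference above 0 (Chordc1, Hsp90aa1 and Hspa8) had transcripts of 35.7% to 45.9% GC, and the 7 below 0 had 47.3% to 61.7% GC. With the trend on GC content and length over all symbols removed, 5 of the 10 were lower and 0 higher, beside 5.23% and 4.30% of symbols. Hspb1 then differed by -0.74 instead of -1.04, Dnajb1 by -0.56 and Hsp90aa1 by -0.09, while Cryab (-2.10) and Hspa1a (-1.39) differed by almost as much as before.

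Handling of tissue can switch on stress genes, and immediate early genes were therefore set beside the heat shock genes. Of 10 kept immediate early genes 1 was lower, Nr4a1, and 0 were higher, with a median of 0.14 and sums of 243 FPKM in SML and 231 FPKM in HFD control. Fos, below the filter, was listed at 0 FPKM in SML although its scaled count there was 13.0, against 8.92 in HFD control. The most abundant, Jund and Dusp1, had ratios of 1.23 (1.16 to 1.31) and 1.22 (1.10 to 1.34). The part of handling in the heat shock values was not tested.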

How the data were processed

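Poly(A) RNA of brown adipose tissue was sequenced from 1 SML and 1 HFD control library. The deposited table gave, for each assembled transcript, an FPKM that the authors computed and a column headed count. Tools named in the submitters' processing notes are CASAVA 1.8 and Cufflinks, with build mm10; the sources used here do not name the aligner, annotation release or filters. The deposited count columns hold a scaled signal, not raw counts: low values moved in steps of 0.866 in SML and 0.637 in HFD control. Of 725 and 513 low values, 90.5% and 90.6% were whole numbers of steps within 0.1, and fragments are values divided by the step. Starts in the table are counted from 0 and are printed 1 higher.

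Rows were summed per symbol with Python 3.11.15, pandas 2.3.3 and SciPy 1.17.1. Symbols with a mean of at least 1 FPKM were kept, a pseudocount of 1 FPKM was added before log2, and the size rule was 1.5-fold. There was no test, because each group is 1 library. Printed gene positions are those of the deposited rows, unless named as GENCODE. GENCODE positions and transcripts come from GENCODE M21 and promoters from RefSeq. Both are on GRCm38, the build also called mm10. The size rule and the intervals were run on simulated fragments with known changes and counting error only. That simulation held no variation between animals, no PCR copies and no division of fragments between genes or rows. The 10 genes and all gene lists were chosen with earlier results of these data known. Named genes were the 10, every kept gene of lists of up to 8 genes, the 2 highest and 2 lowest of longer lists, and the 2 most abundant markers of a cell type. Nr4a1, Fos, Dio2, Cdh5, Dnajc3, Dnajc21, Hspa1l, Hspb9, Hyou1, Sil1 and Serpinh1 fall outside it and were named after their values were seen. Alternatives covered unit, pseudocount, filter, scaling, transcript choice, GC and length trend, size rule and muscle genes; the log2 count ratio with no pseudocount was chosen after seeing the data. No sample column was left unused. The values of 1 gene that the naming rule covers are not reported here.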

Additional observations from a re-analysis of the deposited data

How the results depend on the processing

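Among the 10 genes, the counts of 6 lower and 1 higher were recomputed under 12 alternatives. The count of lower genes ran from 4 to 7 and that of higher genes from 0 to 1. Over all symbols, the lower share ran from 1.96% with the 2-fold rule to 16.3% with a rule looser than 1.5-fold. The count of 7 lower genes arose with that looser rule. The higher share of all symbols ran from 0.668% to 17% between the same rules. Among the 10 genes, the higher count was 0 once the trend on GC content and length was taken out, and 0 with a 2-fold rule. The median difference of -0.61 ran from -0.69 to -0.48. In every alternative that kept the 1.5-fold rule Cryab and Hspb1 were lower, as were Hspa1a and Hspa1b in the 9 of these that kept them. Hsph1 was not lower under 2 scalings, nor Dnajb1 under those and with the trend removed. With the listed muscle markers left out and totals equal, 735 symbols were higher and 439 lower over the whole table, against 538 and 569. That alternative rescaled the 10 genes and took no muscle RNA out of their values. With no filter the counts were 571 and 1117. With the deposited counts in place of FPKM, Hspa1a differed by -2.45 and Hspa1b by -2.08. The ratios of Hspa1a and Hspa1b rest on 17 and 13 fragments in SML. No paired analysis was possible because each group is 1 library.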

Other observations

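Hspa5, Dnajb9, Dnajc3 and Hsp90b1, chaperones or co-chaperones of the endoplasmic reticulum, had ratios of 1.65, 1.48, 1.71 and 1.23. Sil1, Hyou1 and Serpinh1 of the same compartment had ratios of 1.06, 0.840 and 0.739. These genes were put together after their values were seen, leave out others of that compartment, and were given no test.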
